A study of Mus musculus with 39 samples.

Results

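Isolated pancreatic islets of mice at pregnancy day 12.5 were compared with islets at pregnancy day 9.5, on the 4 arrays labelled with each day, 8 of the 39 arrays of the series. The labels call the arrays of a day biological replicates; they do not say whether a replicate was 1 mouse or a pool, nor give an age. All 8 came from wild type C57bl6/J mice, and no treatment or transgene is named for them. The other C57bl6/J groups, used for the estimate of the spread and for the levels before and after, were non-pregnant mice, pregnancy days 3.5, 6.5, 15.5 and 18.5, and 10 days post partum, with 4 arrays each except 3 at day 3.5. The remaining 8 arrays, of Pdx1-creLate mice and their control littermates, were not part of the fit.

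In pregnancy, placental lactogens and prolactin act on the islet through the prolactin receptor and the kinase JAK2, which switches on STAT5 target genes. Beta cells respond by making serotonin, by dividing and by secreting more insulin. The genes of mitosis are transcribed mainly between DNA synthesis and cell division, so in bulk islets their RNA is commonly read as a sign of how many cells are dividing. In such bulk samples, fewer cells of a type and less RNA per cell cannot be told apart.

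Between the 2 days, 35 of 81 measured genes of mitosis fell (43.2%), and 5 of 27 of cholesterol synthesis and uptake (18.5%). Of all genes 1.51% fell. Of 20 genes that pregnancy raises in islets, 6 (30%) went on rising, against 1.72% of all genes. That list was chosen from an earlier analysis of these arrays. Without day 9.5 replicate 3 these counts were 3, 0 and 3, and with array SD as a covariate 1, 0 and 2. None of 30 measured genes of beta-cell maturity and the insulin granule passed the test in either direction, beside 3.22% of all genes. In a list of 30 genes, no call is near that share. A gene is called here where limma's adjusted p was under 0.05 among the 19938 genes tested. The step called 643 genes, or 3.22% of those tested: 342 (1.72%) rose and 301 (1.51%) fell from day 9.5 to day 12.5. The changes were small: the median size of a called difference was 0.40 on the log2 scale, 39 called genes differed by at least 1.5-fold, and 3 by at least 2-fold, namely Lrrc55 and Ifnz upward and Rgs2 downward. In 446 called genes the 4 arrays of one day all lay beyond the 4 of the other, against 1306 of all genes tested.

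The call count depended strongly on single arrays and on the spread of values on an array. It was 37 without day 9.5 replicate 3, 58 without day 9.5 replicate 4, 70 without day 12.5 replicate 4, 189 without day 12.5 replicate 1, 387 without day 12.5 replicate 2 and 1401 without day 9.5 replicate 1. The SD of all genes on an array lay between 1.869 and 1.952 on the day 9.5 arrays and between 1.808 and 1.862 on the day 12.5 arrays, so that the 2 days did not overlap (exact two-sided permutation test, p = 0.0286, the smallest that 70 splits allow). Along with this narrower range at day 12.5, the called rises were mostly of dim genes and the called falls mostly of bright ones: 26.0% of the called rises and 81.1% of the called falls had their brighter day at or above the median level of 6.2, against 52.2% of all genes. With array SD fitted as a covariate 10 genes were called, and its part in the other calls was not tested. The genes named from here on as largest rises and falls were taken from those at or above that median. They also had to have arrays of the 2 days that did not overlap. For these genes non-overlap was thus a condition of naming and is no further evidence.

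**Figure D1:**
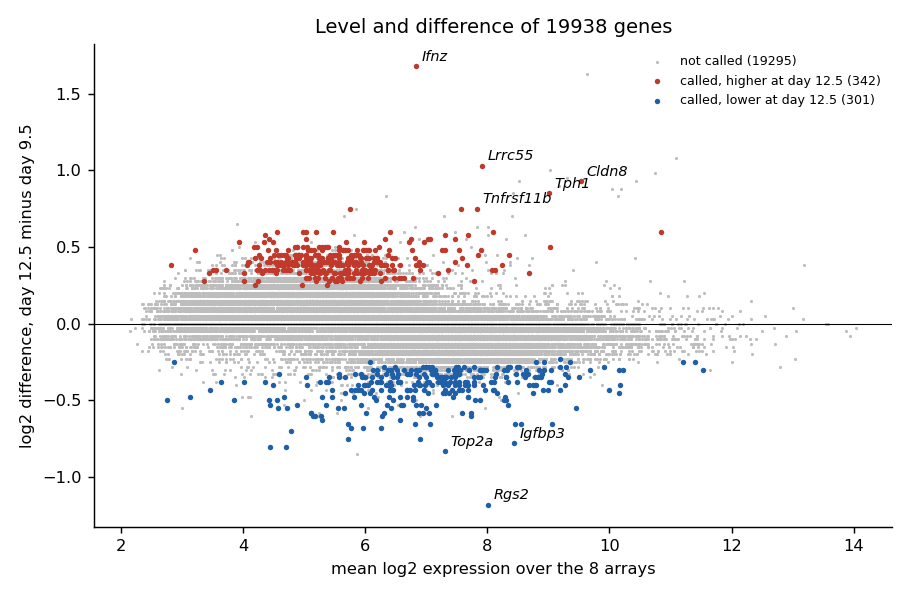
Log2 difference, day 12.5 minus day 9.5 (y axis), of 19938 genes against their mean log2 expression over the 8 arrays (x axis), with the 342 genes called higher in red, the 301 called lower in blue and the others in grey. The red points lie mostly at low levels and the blue points at middle and high levels, with Ifnz at 1.68 and Rgs2 at -1.18 farthest out among the called genes.

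Genes of mitosis and G2/M formed the list with the most calls in this step. Of 81 measured members 35 fell and none rose, 43.2% against 1.51% of all genes, and 75 of the 81 differences were below 0. The median difference was -0.33 on the log2 scale, against 0.00 over all genes. In 28 of the 35 the arrays of the 2 days did not overlap, against 202 of the 301 called falls among all genes. The mean level of the 81 genes was 5.88, 5.99, 6.14 and 5.99 on the 4 arrays of day 9.5 and 5.72, 5.66, 5.68 and 5.62 on those of day 12.5. Every day 12.5 array lay below every day 9.5 array. At day 12.5 the mean of 5.67 was near that of day 6.5 (5.55) and above that of non-pregnant islets (5.20).

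Top2a (probe set 10390707), the topoisomerase that untangles chromosomes before they separate, measured 7.7, 7.6, 7.9 and 7.7 at day 9.5 and 7.1, 6.8, 6.9 and 6.8 at day 12.5. All 4 arrays of day 12.5 were below those of day 9.5, a fall of 1.77-fold (log2 difference -0.83 ± 0.16 SE, limma adjusted p = 0.0102). Anln, the actin-binding scaffold of the cleavage furrow (probe set 10591781), measured 5.8, 6.2, 6.2 and 6.2 at day 9.5 and 5.3, 5.3, 5.4 and 5.4 at day 12.5. Its arrays did not overlap either (-0.75 ± 0.12, adjusted p = 0.00269). Hmmr, a spindle-associated hyaluronan receptor, ranged from 4.4 to 5.2 at day 9.5 and from 3.8 to 4.2 at day 12.5 (-0.80 ± 0.13, adjusted p = 0.00516). It is a dim probe set, and its 2 ranges were 0.2 apart.

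The falls covered the successive tasks of a dividing cell. Among cyclins and their partners, Ccna2 fell by 0.58, Ccnb2 by 0.68, Cks2 by 0.58 and Cks1b by 0.43 on the log2 scale, while Cdk1, the kinase that Ccnb2 activates, differed by -0.28 (adjusted p = 0.227) with overlapping arrays. Among spindle and kinetochore genes, Knstrn fell by 0.75, Bub1 by 0.63, Tpx2 by 0.63, Kif11 by 0.55 and Cenpe by 0.50. The condensin subunits Smc2 and Smc4, which compact chromosomes, fell by 0.53 and 0.45. Prc1 and Ect2, which organise the midzone and the cleavage furrow, fell by 0.68 and 0.50. Mki67, the common marker of dividing cells, was between 6.8 and 7.3 at day 9.5 and between 6.5 and 6.6 at day 12.5 (-0.53 ± 0.14, adjusted p = 0.0331).

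Other members were not called. Aurkb and Aspm, a kinase of the chromosomal passenger complex and a spindle-pole protein, differed by 0.08 and 0.10 with overlapping arrays. Foxm1, the transcription factor that drives many of these genes, differed by -0.25 (adjusted p = 0.123).

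The number of called members depended on single arrays more than the size of the fall did. It was 3 without day 9.5 replicate 3, 14 without day 9.5 replicate 4, 8 without day 12.5 replicate 4, 12 in a fit of the 8 arrays alone and 1 with array SD fitted as a covariate. The median difference of the list stayed between -0.35 and -0.27 under all 21 alternatives tried, these included.

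**Figure D2:**
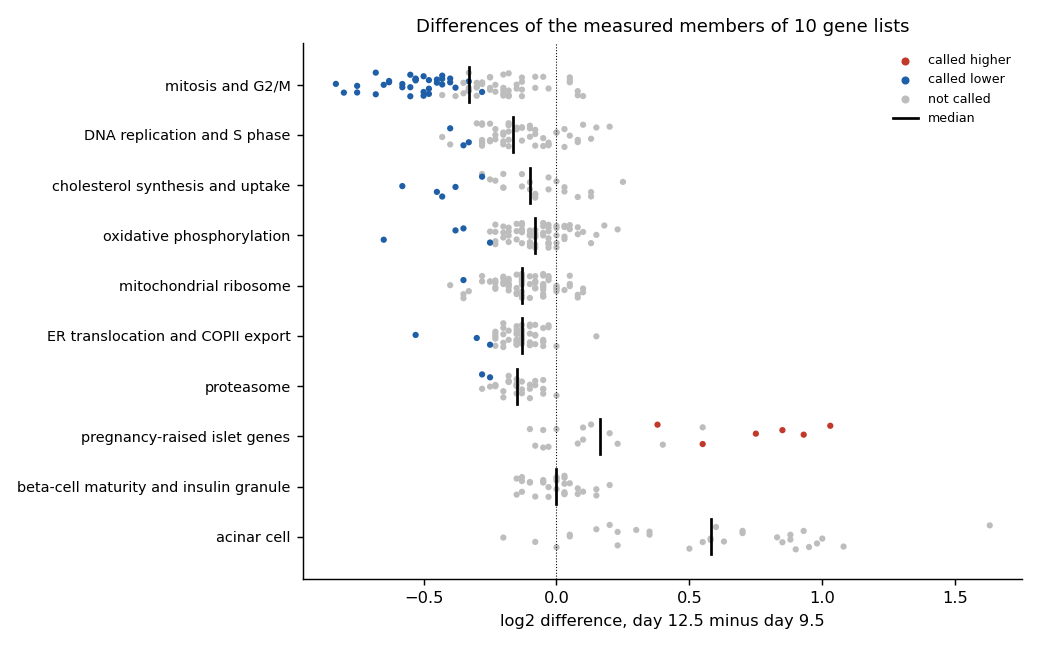
Log2 difference, day 12.5 minus day 9.5 (x axis), of every measured member of 10 gene lists (rows, with points jittered vertically), in red where called higher, blue where called lower and grey where not called, with the list's median as a black bar. The mitosis list holds 35 blue points around a median of -0.33, the pregnancy-raised list 6 red points, and the acinar list is wide at a median of 0.58 with no call.

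Promoters of mitotic genes are known for 2 short elements, the cell cycle gene homology region TTTGAA or TTCGAA and the CCAAT box, through which the DREAM and MuvB complexes and the factor NF-Y act. Promoters of 3 of the 6 largest falls in the list are shown to illustrate how the elements occur among genes that fell together, with the 250 bases before the listed start from RefSeq (GRCm38.p6), 5′ to 3′ on the gene's strand; capitals mark these elements on either strand.
Top2a (chr11:99024190-99024439, minus strand): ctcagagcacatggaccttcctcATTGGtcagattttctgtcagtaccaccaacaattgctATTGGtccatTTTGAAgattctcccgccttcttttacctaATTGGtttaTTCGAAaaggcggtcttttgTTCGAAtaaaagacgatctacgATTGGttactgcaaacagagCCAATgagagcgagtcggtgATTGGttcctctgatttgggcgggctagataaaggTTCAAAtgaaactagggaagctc
Hmmr (chr11:40733438-40733687, minus strand): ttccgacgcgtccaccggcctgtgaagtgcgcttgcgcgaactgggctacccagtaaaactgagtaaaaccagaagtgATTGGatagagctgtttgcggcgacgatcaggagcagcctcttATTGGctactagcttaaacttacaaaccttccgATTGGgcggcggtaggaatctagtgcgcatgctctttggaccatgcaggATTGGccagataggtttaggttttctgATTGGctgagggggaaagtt
Anln (chr9:22389207-22389456, minus strand): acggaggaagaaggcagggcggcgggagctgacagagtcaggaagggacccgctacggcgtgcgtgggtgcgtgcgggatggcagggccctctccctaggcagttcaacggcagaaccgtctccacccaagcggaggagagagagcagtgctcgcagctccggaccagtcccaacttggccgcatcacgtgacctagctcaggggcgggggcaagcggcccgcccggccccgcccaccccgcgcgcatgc
In these windows Top2a held 4 matches to TTTGAA or TTCGAA and 6 to CCAAT, Hmmr held 5 to CCAAT, and Anln held neither. Of the 29 called members with a promoter in the table, 12 (41.4%) held TTTGAA or TTCGAA and 22 (75.9%) held CCAAT. Among the 37 other measured members with a promoter the numbers were 13 (35.1%) and 22 (59.5%). Over all 15614 measured genes with a promoter, 15.1% held the first element and 35.5% the second. These are matches of letters, given as a description, with no test.

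The genes of DNA replication, which act earlier in the cycle than those of mitosis, gave 3 calls. Of 54 measured members 3 fell and none rose, 5.56% against 1.51% of all genes, and the median difference was -0.16. Prim1, a primase subunit, measured 6.4, 6.7, 6.6 and 6.6 at day 9.5 and 6.2, 6.3, 6.0 and 6.2 at day 12.5 (-0.40 ± 0.10, limma adjusted p = 0.0247). Pola1, the catalytic subunit of the polymerase it works with, fell by 0.35 and the flap endonuclease Fen1 by 0.33. The replicative helicase subunits Mcm2 and Mcm5 differed by -0.18 (adjusted p = 0.231) and -0.28 (adjusted p = 0.113). Without day 9.5 replicate 1, 12 replication genes were called lower, 1 without day 9.5 replicate 2, day 12.5 replicate 1 or day 12.5 replicate 3, and none without day 9.5 replicate 3, day 9.5 replicate 4 or day 12.5 replicate 4. Whether the replication genes fell less than the mitotic genes was not tested. Among 24 histone genes H2az1 (-0.43 ± 0.10, adjusted p = 0.0192) and the dim H2ac4 (-0.50 ± 0.13, adjusted p = 0.0313) fell, 8.33% against 1.51% of all genes.

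The regulators of entry into the cycle gave 1 call. Of 20 D cyclins, CDK inhibitors and menin partners, Cdkn1b alone was called, 5% against 1.51% of all genes called lower. This inhibitor of cyclin-dependent kinases measured 9.0, 9.0, 9.1 and 9.1 at day 9.5 and 8.8, 8.7, 8.8 and 8.6 at day 12.5 (-0.33 ± 0.08, adjusted p = 0.0295). Its 2 groups of arrays lay apart, and the call was lost in 9 of 21 alternatives. Ccnd1, Ccnd2 and Ccnd3 differed by -0.13, -0.03 and 0.00, and Men1, the tumour suppressor menin, by 0.00, none of them called. Myc ranged from 8.0 to 8.8 at day 9.5 and from 7.7 to 8.1 at day 12.5 (-0.50 ± 0.22, adjusted p = 0.17). Prlr, Ccnb1 and Cdkn1a were not analysed here.

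The genes that pregnancy raises in islets divided into some that continued upward and others that did not pass the test. The list of 20 was chosen from an earlier analysis of the same arrays and is no independent evidence of direction. Of its members 6 rose and none fell, 30.0% against 1.72% of all genes, and the median difference was 0.16. The 6 were Lrrc55, Cldn8, Tph1, Tnfrsf11b, Sftpd and Ehhadh.

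Lrrc55 (probe set 10484503), an auxiliary subunit of the large-conductance calcium-activated potassium channel, measured 7.0, 6.9, 7.7 and 8.0 at day 9.5 and 8.2, 8.5, 8.5 and 8.5 at day 12.5. All day 12.5 arrays were higher, and the day 9.5 arrays were the more scattered (SD 0.54 against 0.15, n = 4). The rise was 2.03-fold (1.03 ± 0.17, limma adjusted p = 0.00594). From a mean of 5.65 at day 6.5, Lrrc55 was at 7.40 at day 9.5, 8.43 at day 12.5, 8.95 at day 15.5 and 9.58 at day 18.5.

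Cldn8 (probe set 10440647), a claudin of tight junctions, measured 8.5, 9.2, 9.0 and 9.6 at day 9.5 and 9.7, 10.1, 10.3 and 9.9 at day 12.5. The closest arrays of the 2 days were 0.1 apart, which is the rounding step of the values. The rise was 1.90-fold (0.93 ± 0.18, adjusted p = 0.00984). It followed a larger difference before it, from a mean of 6.28 at day 6.5 to 9.08 at day 9.5, and the mean at day 12.5 was 10.00.

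Tph1 (probe set 10563570), the enzyme that sets the rate of serotonin synthesis outside the brain, measured 8.0, 8.8, 8.7 and 8.8 at day 9.5 and 9.3, 9.4, 10.0 and 9.0 at day 12.5. No arrays overlapped, with day 9.5 replicate 1 the lowest by 0.7. The rise was 1.80-fold (0.85 ± 0.22, adjusted p = 0.0308), and the call was lost in 10 of 21 alternatives, with an adjusted p of up to 0.425. The mean was highest at day 12.5, at 9.43, and 9.30 and 8.90 at days 15.5 and 18.5.

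Tnfrsf11b (probe set 10428604), osteoprotegerin, a secreted decoy receptor for the cytokine RANKL, measured 7.3, 7.5, 7.6 and 7.4 at day 9.5 and 7.9, 8.1, 8.4 and 8.4 at day 12.5. The 2 groups were 0.3 apart at their nearest (0.75 ± 0.16, adjusted p = 0.0148). Day means after day 12.5 stayed between 7.95 and 8.28. Sftpd, the collectin surfactant protein D, rose by 0.55 ± 0.11 (adjusted p = 0.0121) and Ehhadh, which oxidises fatty acids in peroxisomes, by 0.38 ± 0.10 (adjusted p = 0.0414), both with overlapping arrays. Between 3 and 5 of the list were called when any 1 array was left out, with 3 without day 9.5 replicate 3 or replicate 4, 1 in the 8 arrays alone and 2 with the SD covariate.

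Other members of the list were not called. Tph2, the other tryptophan hydroxylase, measured 7.2, 7.1, 7.3 and 7.5 at day 9.5 and 7.0, 7.1, 7.3 and 7.5 at day 12.5, so that its arrays lay in 1 range (-0.05 ± 0.13, limma adjusted p = 0.859). Cish, a feedback inhibitor and STAT5 target, measured 10.0, 10.0, 10.1 and 10.2 and then 9.9, 10.1, 10.2 and 10.1 (0.00 ± 0.20). Socs2, of the same family, differed by -0.10 ± 0.11 and Ivd, an enzyme of leucine breakdown, by 0.10 ± 0.10. For Tph2, Cish, Socs2 and Ivd the difference from day 6.5 to day 9.5 had been upward in the means, from 5.90 to 7.28, from 9.13 to 10.08, from 8.90 to 9.70 and from 10.25 to 11.58. An adjusted p above the threshold does not show that these genes held level, and that they differ from Tph1 or Lrrc55 in this step was not tested.

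**Figure D3:**
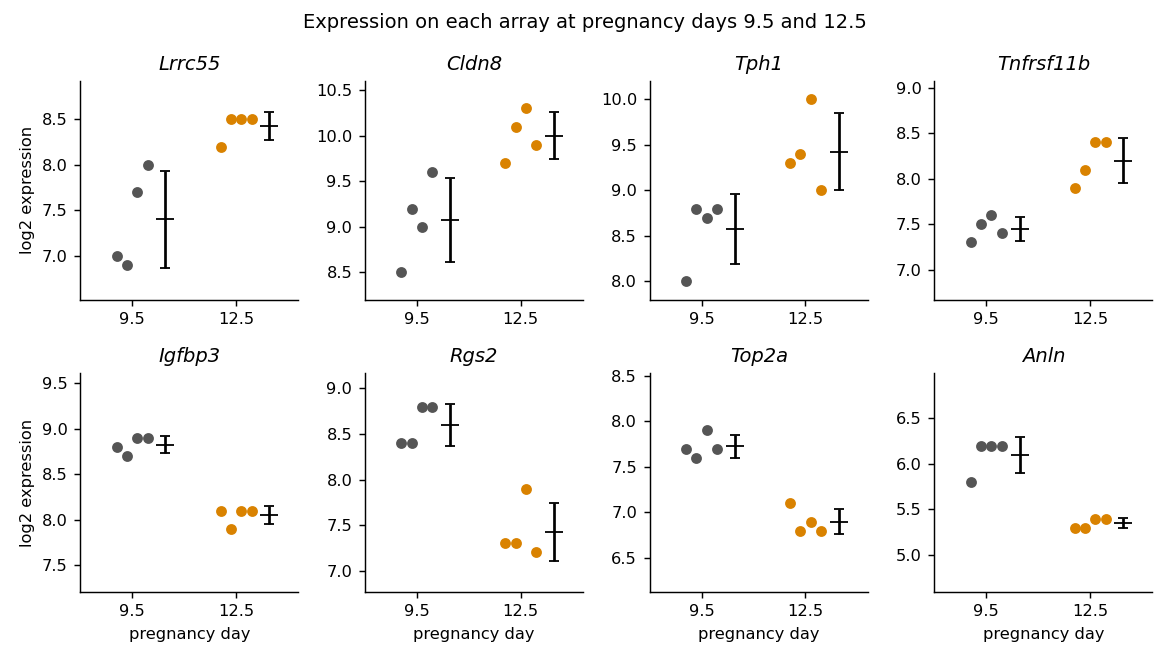
Log2 expression on each of the 4 arrays at day 9.5 (grey) and day 12.5 (orange) for 4 genes called higher (top) and 4 called lower (bottom), with the mean and SD in black and axes of equal length. The 2 groups of points do not overlap in any of the 8 panels, which for all genes but Anln was a condition of being named as a largest rise or fall. Igfbp3 has the smallest scatter beside its difference.

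The lists of lactogen and serotonin pathway genes gave 1 and 2 calls, all upward. In the list of 33 lactogen and growth hormone signalling genes Tnfrsf11b was the sole call, 3.03% against 1.72% of all genes called higher. Jak2, Stat5a and Stat5b, which carry the signal from the receptor, differed by -0.13, 0.05 and -0.05. Of 26 genes of serotonin synthesis, storage, breakdown and reception, Tph1 and the dim receptor Htr1d (0.35 ± 0.09, limma adjusted p = 0.0378) were called. That is 7.69% against 1.72%. No serotonin gene was called higher without day 9.5 replicate 3 or 4, or without day 12.5 replicate 1, 2 or 3. The same held in the 8 arrays alone and with the SD covariate. Ddc, which makes serotonin from the product of tryptophan hydroxylase, differed by -0.10 and the receptor Htr2b by 0.05.

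Igfbp3 (probe set 10384223), a secreted protein that binds insulin-like growth factors, had the smallest adjusted p of the step. It measured 8.8, 8.7, 8.9 and 8.9 at day 9.5 and 8.1, 7.9, 8.1 and 8.1 at day 12.5. The groups were 0.6 apart at their nearest, with an SD of 0.10 in each (n = 4). The fall was 1.71-fold (-0.78 ± 0.08, limma adjusted p = 1.76e-06). Igfbp3 and Tnfsf9, a ligand of the tumour necrosis factor family, were the 2 of the 643 called genes that stayed called under all 21 alternatives, Igfbp3 with adjusted p from 2.65e-08 to 0.00454. Tnfsf9 measured 5.0, 5.0, 5.3 and 5.2 at day 9.5 and 4.5, 4.3, 4.3 and 4.6 at day 12.5 (-0.70 ± 0.13, adjusted p = 0.00972), below the median level of all genes. The means of Igfbp3 were 8.55 in non-pregnant islets, 8.20 at day 6.5, 8.83 at day 9.5 and 8.05 at day 12.5, so that it was highest at day 9.5 and lowest at day 12.5 of all 8 groups.

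Rgs2 (probe set 10358389), which shortens signalling of Gq-coupled receptors, had the largest fall. It measured 8.4, 8.4, 8.8 and 8.8 at day 9.5 and 7.3, 7.3, 7.9 and 7.2 at day 12.5. The groups were 0.5 apart, with day 12.5 replicate 3 high in its group. The fall was 2.26-fold (-1.18 ± 0.27, limma adjusted p = 0.0192), and the call was lost in 6 of 21 alternatives. Rgs2 had been higher in non-pregnant islets (9.48), was at 7.93 at day 6.5, 8.60 at day 9.5 and 7.43 at day 12.5.

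The remaining large falls belonged to several kinds of gene. Chordc1 and Dnajb1, chaperone partners induced by heat shock, fell by 0.60 and 0.58, and Dnajb1 measured 7.6, 7.9, 8.0 and 8.0 against 7.2, 7.3, 7.4 and 7.3. Errfi1, a feedback inhibitor of the EGF receptor, fell by 0.65 and Slc38a5, a glutamine transporter, by 0.65. Hapln1, which links hyaluronan to proteoglycans, fell by 0.58. Rtp4, an interferon-induced gene, measured 7.8, 6.9, 7.1 and 6.8 and then 6.4, 6.6, 6.4 and 6.6 (-0.65 ± 0.15, limma adjusted p = 0.0204), with day 9.5 replicate 1 high. That array also had the highest mean of the 36 interferon response genes. That mean was 7.32, against 6.66 to 6.91 on the other day 9.5 arrays and 6.66 to 6.80 at day 12.5. With all arrays 2 interferon genes were called lower, 5.56% against 1.51% of all genes, and none higher. Without day 9.5 replicate 1, 1 was called lower and 2 higher, where 670 of all genes were called lower and 731 higher. Without day 9.5 replicate 2, 8 were called lower, where 251 of all genes were. None was called lower without day 9.5 replicate 3 or replicate 4 or day 12.5 replicate 1, where 13, 35 and 106 of all genes were.

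Immediate-early and stress genes gave calls both ways, 4.08% higher and 6.12% lower, against 1.72% and 1.51% of all genes. Neither direction gave a call without day 9.5 replicate 3 or replicate 4, or with the SD covariate. Of 49 measured, Egr2 and Egr4, transcription factors induced by growth signals, each rose by 0.38, and Rgs2, Dnajb1 and Btg1 fell. Fos and Egr1 differed by 0.15 and -0.25 and were not called.

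Genes of cholesterol synthesis and uptake fell in part. Of 27 measured members 5 were lower and none higher, 18.5% against 1.51% of all genes, with a median of -0.10. Idi1, the isomerase of isopentenyl diphosphate, measured 7.9, 8.1, 8.0 and 8.1 at day 9.5 and 7.7, 7.6, 7.3 and 7.2 at day 12.5. All arrays of day 12.5 were lower (-0.58 ± 0.12, limma adjusted p = 0.0148). Hmgcs1, a synthase early in the pathway, measured 8.9, 9.0, 9.1 and 8.9 and then 8.7, 8.6, 8.4 and 8.4 (-0.45 ± 0.10, adjusted p = 0.0148). Cyp51 and Fdps, later enzymes of the pathway, fell by 0.43 and 0.38 and the cholesterol carrier Stard4 by 0.28. Sqle differed by -0.08, and Dhcr7, which makes the final reduction to cholesterol, was higher by 0.25 without a call (adjusted p = 0.13).

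No cholesterol gene was called without day 9.5 replicate 3, without day 12.5 replicate 4 or with the SD covariate. Without day 9.5 replicate 4, and in the 8 arrays alone, 1 was called, and without day 12.5 replicate 2 the count was 3. Of 33 measured genes of fatty acid synthesis and oxidation 2 fell, 6.06% against 1.51% of all genes. Ehhadh alone rose, 3.03% against 1.72%, and the median was -0.05. The falls were of Scd1 and Scd2, the desaturases that make monounsaturated fatty acids, by 0.68 and 0.43. Scd1 measured 5.9, 6.4, 6.0 and 6.1 at day 9.5 and 5.7, 5.5, 5.3 and 5.2 at day 12.5 (limma adjusted p = 0.00972), and the SD covariate alone of 21 alternatives took its call away.

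Genes of energy supply and protein handling gave 15 calls, all downward. Of 69 oxidative phosphorylation genes 4 fell (median -0.08), of 51 genes of ER translocation and COPII export 3 (median -0.13), of 31 proteasome genes 2 (median -0.15), of 39 ER chaperone and degradation genes 2 (median -0.10), of 45 ribosome biogenesis genes 3 (median -0.08) and of 75 mitochondrial ribosome genes 1 (median -0.13). None of these genes rose. The shares called lower ran from 1.33% in the mitochondrial ribosome to 6.67% in ribosome biogenesis, against 1.51% of all genes. Cycs, cytochrome c, measured 8.5, 9.2, 9.0 and 8.8 at day 9.5 and 8.3, 8.2, 8.3 and 8.1 at day 12.5 (-0.65 ± 0.13, limma adjusted p = 0.00984). Kdelr3, a receptor that returns ER proteins, fell by 0.53 and Rpn1, a subunit of the glycosylating enzyme of the ER, by 0.30. Hspa5, the main ER chaperone, differed by -0.20 (adjusted p = 0.10).

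The mean levels of these lists at day 9.5 lay between 7.47 and 10.17, and bright genes had a median difference below 0 in this step (the median was -0.075 for genes at or above the median level, 0.10 for dimmer ones). Their 15 calls were 0 without day 9.5 replicate 3, 1 without day 9.5 replicate 4 or day 12.5 replicate 4, 5 to 7 without day 12.5 replicate 1, day 12.5 replicate 2 or day 9.5 replicate 2, 28 without day 9.5 replicate 1, and 0 in the 8 arrays alone or with the SD covariate. With that covariate the 6 medians ran from -0.04 to 0.04, those of oxidative phosphorylation, ER chaperones and ribosome biogenesis being above 0, and with quantile normalization from -0.08 to -0.01.

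Genes of beta-cell identity gave 1 call. None of 30 genes of maturity and the insulin granule and none of the 9 measured beta-cell markers was called. Their medians were 0.00 and 0.03. Over all genes 3.22% were called in either direction, so no call in lists this short is near that share. Ins2 measured 12.7 on all 4 arrays of day 9.5 and on 3 of day 12.5, with the last at 12.6. Pdx1, Mafa and Nkx6-1, transcription factors of the mature beta cell, differed by 0.03, 0.00 and 0.08, and the glucose transporter Slc2a2 by 0.08. Of 29 beta-cell transcription factors Sox4, which acts in endocrine differentiation, was called (-0.48 ± 0.13, limma adjusted p = 0.0416). That is 3.45% called lower, against 1.51% of all genes. Of 23 genes normally kept low in beta cells, Rest, a repressor of neuronal genes, was the sole call, 4.35% against 1.72% of all genes called higher. Rest rose by 0.38 at a low level. Its means were 5.23 in non-pregnant islets, 5.18 at day 6.5, 4.85 at day 9.5 and 5.23 at day 12.5. The call was lost in 10 of 21 alternatives. Ins1 was not analysed here.

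Markers of the other cells of an islet preparation gave 6 calls, and 3.22% of all genes were called in either direction. The lists with a call held 13 alpha, 11 delta, 29 macrophage, 15 neuronal, 32 stellate and 3 erythrocyte genes. Whether the 6 calls depart from the share over all genes was not tested. The hormones Gcg, Sst and Ppy of alpha, delta and PP cells differed by -0.08, 0.00 and -0.08, none called. Hhex, a transcription factor that delta cells need, measured 6.4, 6.4, 6.6 and 6.9 at day 9.5 and 5.9, 6.2, 5.8 and 6.0 at day 12.5 (-0.60 ± 0.13, limma adjusted p = 0.0148). Gria3 of the alpha list, Mpeg1 of the macrophage list, Nefm of the neuronal list and Timp3 of the stellate list each fell, by 0.40, 0.53, 0.43 and 0.40, and Slc4a1 of 3 erythrocyte markers rose by 0.33. No other member of those 6 lists was called. Nor was any of 25 endothelial, 21 duct, 19 lymphocyte, 11 adipocyte and lymph node, 8 PP and epsilon or 31 acinar genes. The 6 calls fell to 1 without day 9.5 replicate 3, 2 without day 9.5 replicate 4 or day 12.5 replicate 4, 3 without day 12.5 replicate 1 or replicate 3, and 0 with the SD covariate.

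Exocrine tissue differed between arrays more than between days. The mean of 31 acinar genes was 5.87, 8.54, 7.51 and 7.42 at day 9.5 and 7.31, 8.32, 7.62 and 8.33 at day 12.5. The ranges overlapped, and day 9.5 replicate 1 was the lowest. Cpa1, a digestive carboxypeptidase, was at 8.0 on that array, 10.6 to 11.8 on the other day 9.5 arrays and 10.5 to 11.9 at day 12.5. The median difference of the list was 0.58, without a call, and 0.09 without day 9.5 replicate 1. With the acinar mean as a covariate 666 genes were called.

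Among the largest rises were members of families with similar copies. Ifnz, an interferon of a large family of near-identical copies, measured 6.1, 6.1, 5.8 and 6.0 at day 9.5 and 7.4, 7.6, 7.7 and 8.0 at day 12.5, the farthest apart of any called gene (1.68 ± 0.31, limma adjusted p = 0.00972). Whether its probe set reads 1 copy was not tested, and its means in non-pregnant islets and at day 15.5 were 7.30 and 8.30. The keratin-associated Krtap5-1 rose by 0.58 and the olfactory receptor Olfr767 by 0.75, and for these too it was not tested. Rmrp and Rprl2, short non-coding RNAs of the ribonuclease complexes, rose by 0.60 and 0.50. Of 21 alternatives, the call was lost in 13 for Krtap5-1, 12 for Rmrp, 7 for Rprl2, 6 for Olfr767 and 1 for Ifnz.

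The other named rises included genes of secreted and membrane proteins, and also Hrnr and Plcxd1, which rose by 0.60 and 0.53. Prok1, a secreted prokineticin, measured 6.9, 7.1, 7.1 and 7.0 at day 9.5 and 7.4, 7.5, 7.7 and 7.8 at day 12.5 (0.58 ± 0.16, limma adjusted p = 0.0451). Its means had been 6.43 at day 6.5 and 6.28 in non-pregnant islets. Cym, a gastric protease, rose by 0.55 and Crispld2, a secreted protein of the extracellular matrix, by 0.53. Tmem217, a membrane protein, measured 6.1, 6.2, 5.9 and 6.0 and then 6.7, 6.5, 6.4 and 6.8 (0.55 ± 0.09, adjusted p = 0.00354). Of 21 alternatives, the call was lost in 14 for Prok1, 9 for Crispld2, 4 for Cym, 3 for Plcxd1, 2 for Hrnr and 1 for Tmem217.

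Whether this step differs from the one before it was tested as the departure of day 9.5 from the mean of days 6.5 and 12.5. That test shares the day 9.5 and day 12.5 arrays with the step, so a deviation of those arrays moves both. It called 1579 genes high at day 9.5 (7.92% of those tested) and 1408 low (7.06%). High here means above the mean of days 6.5 and 12.5, which a rise that slows also gives. Without day 9.5 replicate 3 or replicate 4 the total of 2987 was 1087 or 795. Of the mitosis list 60 of 81 were high and none low, of DNA replication 24 of 54, of ER translocation and COPII export 28 of 51 and of cholesterol synthesis 11 of 27, with 1 low.

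Among the genes given here, the departures called high had 2 shapes. Top2a had means of 6.80, 7.73 and 6.90 at days 6.5, 9.5 and 12.5, a departure of 0.88 ± 0.14 (limma adjusted p = 0.000262), up and then down. Hmmr (0.85 ± 0.11) and Rgs2 (0.93 ± 0.23) had the same shape. Tph1 at 5.23, 8.58 and 9.43 (1.25 ± 0.19) and Cldn8 (0.94 ± 0.15) had an earlier difference larger than the later one. Both had a higher mean at day 12.5 than at day 9.5, so day 9.5 was not their high point. Of the genes called low, Olfr767 had means of 8.23, 7.20 and 7.95 on these days and Tmem217 of 6.45, 6.05 and 6.60. Lrrc55 had no called departure (0.36 ± 0.15, adjusted p = 0.0936).

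**Figure D4:**
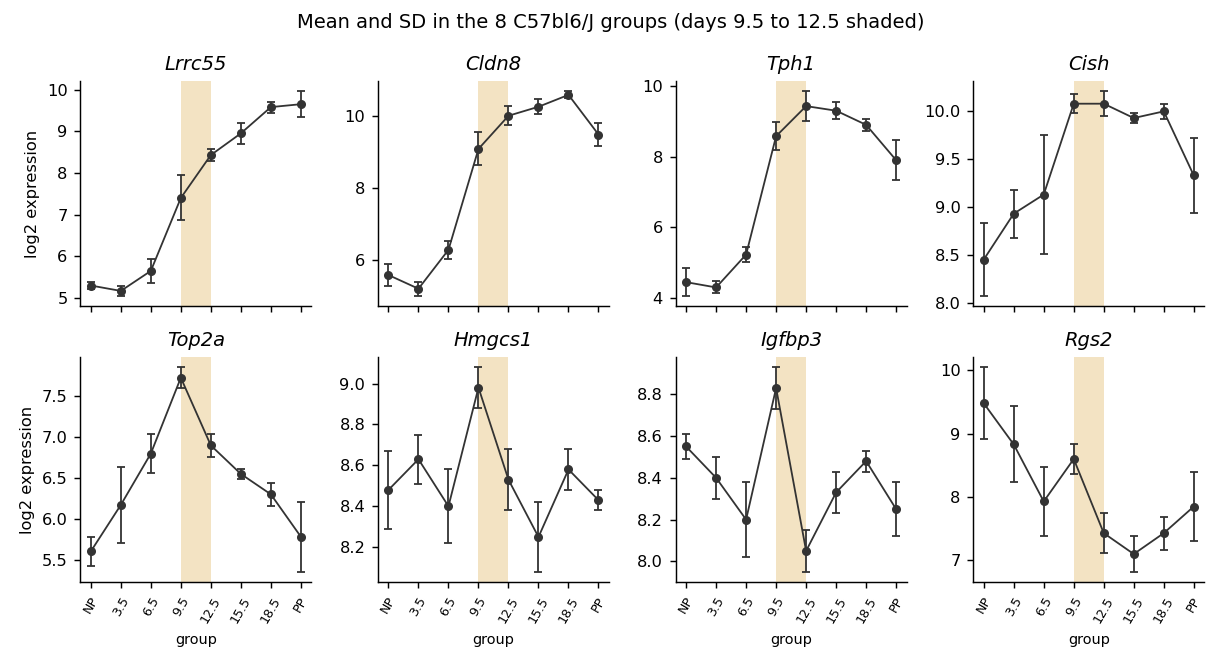
Mean log2 expression with SD (error bars) in the 8 C57bl6/J groups, non-pregnant (NP), pregnancy days 3.5 to 18.5 and post partum (PP), for 8 genes, with the interval from day 9.5 to day 12.5 shaded; n is 4 arrays per group except 3 at day 3.5. Lrrc55, Cldn8 and Tph1 are still rising across the shaded interval, and Cish has a mean of 10.08 at both of its ends. Top2a, Hmgcs1 and Igfbp3 have their highest group mean at day 9.5.

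**Figure D5:**
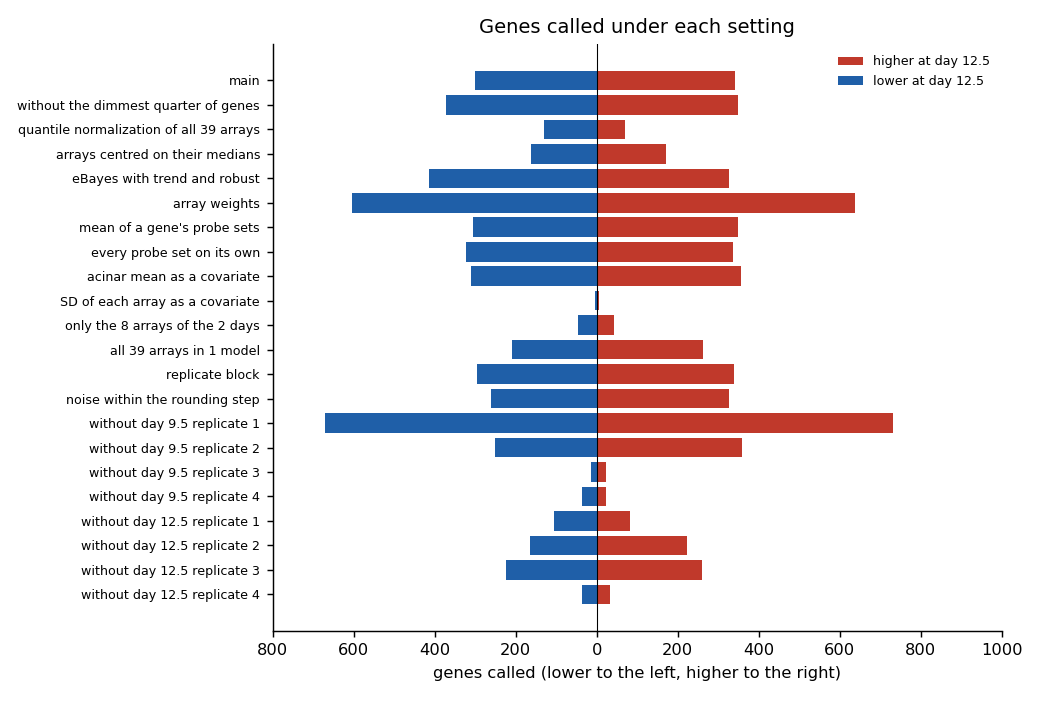
Number of genes called higher (red, to the right) and lower (blue, to the left) at day 12.5 under the main setting (342 and 301) and each alternative, 1 bar per setting. The bars are shortest with array SD as a covariate (5 and 5) and without day 9.5 replicate 3, and longest without day 9.5 replicate 1.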

How the data were processed

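Biotin-labelled targets from islet RNA were hybridised to Affymetrix arrays. Per the submitters' processing notes, the authors summarised them with RMA (background correction, quantile normalization and probe set summary) in Affymetrix Expression Console. The deposited values are log2, with 1 decimal and none missing; which arrays were normalized together is not given in the sources used here.

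Of 35556 probe sets, 21789 had 1 gene symbol, 1621 several and 12146 none. Each symbol was represented by its brightest probe set on average over the 39 arrays, giving 19938 genes; 999 had a choice. No filter on low values was applied. Group means of the 31 C57bl6/J arrays were compared in limma 3.58.1 (R 4.3.3; lmFit, eBayes) with two-sided tests, and p-values were adjusted by Benjamini and Hochberg's method across the 19938 genes, with a threshold of 0.05. The procedure was tested on simulated arrays. Files were handled with Python 3.11.15, numpy 2.4.6 and pandas 2.3.3, and figures drawn with matplotlib 3.10.9. Promoters are RefSeq's, 250 bases before the first listed start of a gene. The number of arrays limits the precision.

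The members and the 42 gene lists (1247 of 1364 members measured) were chosen with earlier results of these data known. Lists are described by counts and medians, with no set test. Genes named are the 15 largest called rises and falls whose arrays do not overlap and whose brighter day is at or above the median level, up to 4 called members of a list in each direction, a short set given whatever its result, and the 5 largest turns at day 9.5 each way; further members of the lists, Tnfsf9 and the genes called with the SD covariate were added after their values were seen. The alternatives were a filter on the dimmest 25% of genes, quantile normalization, median centring, trend and robust eBayes, array weights, other uses of a gene's probe sets, the acinar mean or the array SD as a covariate, other sets of arrays in the fit, the replicate number as a block, noise within the rounding step of 0.1, and each of the 8 arrays left out.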

Additional observations from a re-analysis of the deposited data

Results flagged for a closer look

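In 20 of 314 groups of 4 arrays looked at, the highest or lowest array stood apart from the others by Dixon's test at the 95% level; chance marks about 1 group in 20, and groups whose whole range was the rounding step of 0.1 were not looked at. At day 9.5, replicate 1 was low for Anln (5.8), G6pc2 (12.8), Ndufb6 (9.0) and Tph1 (8.0) and high for Krt19 (5.8). Replicate 2 was low for Atf4 (8.7), replicate 3 for Mir297b (4.9), and replicate 4 was high for Crispld2 (7.0) and Mcm2 (7.8). At day 12.5, replicate 1 was low for Lrrc55 (8.2) and Neb (6.9) and high for Dld (8.6). Replicate 2 was low for Igfbp3 (7.9), and replicate 3 was low for Ccnb2 (5.4) and high for Rgs2 (7.9). Of list means at day 12.5, replicate 4 was low for ER translocation and COPII export (9.93), replicate 2 for PP and epsilon cell genes (7.98), replicate 1 for beta-cell transcription factors (7.76) and replicate 3 for delta cell genes (7.17), and replicate 1 was high for p53 targets (6.85).

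The test of whether the step differs from the one before it called 2987 genes. Its largest departures of day 9.5 from the mean of days 6.5 and 12.5, among genes called in both tests, were 1.25 for Tph1, 0.94 for Cldn8, 0.93 for Rgs2, 0.88 for Top2a and 0.85 for Hmmr above it, and -1.01 for Ifnz, -0.89 for Olfr767, -0.85 for Mir297b, -0.66 for Mir301b and -0.61 for Krtap5-3 below it.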

How the results depend on the processing

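The count of called genes, 643 (342 higher, 301 lower), was 199 (69 and 130) after quantile normalization of all arrays, 332 (171 and 161) with arrays centred on their medians, 1242 (639 and 603) with array weights, 10 (5 and 5) with array SD as a covariate and 89 (44 and 45) in the 8 arrays alone; the cause was not tested, except that the last fit holds fewer arrays. Leaving out 1 array gave 37 to 1401 calls (23 to 731 higher, 13 to 670 lower). The share of rises among calls was 53.2% in the main setting and 34.7% after quantile normalization. The count for the turn at day 9.5, 2987, was 1268 under quantile normalization, 97 under the SD covariate, and 795 to 3687 with 1 array left out. The other alternatives gave 471 to 740 calls for the step. No called gene changed direction under any alternative. Replicate numbers did not pair the days: deviations of same-numbered arrays correlated at 0.17, -0.03, 0.01 and -0.20, and with the replicate number as a block 636 genes were called (340 higher, 296 lower), and 2954 for the turn. Dim genes are limited by their signal over background, and small differences by the 1 decimal of the values.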

Other observations

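With array SD fitted as a covariate, 10 genes were called, and 9 of them were also called without it. Igfbp3, Lrrc55, Nek2, Sftpd and Tnfsf9 are described above or belong to the lists above. Gas2, which binds actin and microtubules, measured 7.9, 7.9, 8.0 and 8.0 at day 9.5 and 8.3 on all 4 arrays of day 12.5 (0.35 ± 0.07, limma adjusted p = 0.0121 without the covariate), and its means were 7.58 at day 6.5 and 8.40 at day 18.5. Asic1, a proton-gated sodium channel, differed by 0.33 ± 0.09 (adjusted p = 0.0372), and Lair1, an inhibitory collagen receptor of leukocytes, by -0.38 ± 0.10 (adjusted p = 0.0364), both with overlapping arrays. Zfy2, a gene of the Y chromosome, was also called in these pregnant mice, at 2.6 to 2.7 at day 9.5 and 2.8 to 3.1 at day 12.5, near the lowest values of the arrays (1.7). Ybx2 was called with the covariate alone, with a difference of -0.10 (adjusted p = 0.594) without it.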
